A study of Mus musculus with 4 samples.

Results

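The regions described here are the 2533 spliced regions listed for mouse embryonic fibroblasts (MEFs) heterozygous for *Ire1a* (Het) that had been given 1 mM dithiothreitol (Dtt), a reducing agent that breaks disulfide bonds, for 4 hours. Every row of the Dtt list was taken, which is 2533 of the 2588 regions of the series, and the other 55 come from a second experiment with 500 nM thapsigargin (Tg) for 4 hours. A spliced region is a gap in the genome that split reads of the Het library cross and for which no match was found in the *Ire1a* knockout (KO) library of the same experiment. Each experiment has 1 Het and 1 KO library of C57BL/6 MEFs. In the sample labels both KO cultures are untreated, whereas the methods of the study give the KO cells the same treatment as the Het cells, so genotype and treatment cannot be told apart from the labels. The KO line of the Dtt experiment carries an allele that lacks both the kinase and the RNase domains. The Tg experiment used another KO allele and shorter reads. The KO columns of the list hold no number, so no read count was compared between genotypes, and the list holds no expression level, so neither the deleted gene nor the cell type could be checked by its level. Of 10 fibroblast markers 4 have a region (*Col1a1*, *Col1a2*, *Thy1* and *Vim*), against 0 of 4 epithelial, 0 of 3 endothelial and 0 of 3 immune markers and 8.84% of all protein-coding genes. The fibroblast markers *Col3a1*, *Pdgfra*, *Pdgfrb*, *S100a4*, *Dcn* and *Lum* have none. A region does not measure expression, so these counts do not identify the cell type.

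IRE1α is a sensor in the membrane of the endoplasmic reticulum (ER) with a kinase and an RNase domain on the cytosolic side. When unfolded proteins build up it cuts the mRNA of *Xbp1*, a transcription factor of the unfolded protein response, at a pair of stem-loops, and a ligase joins the outer parts in the cytosol. Nearly all other introns are removed in the nucleus by the spliceosome, which reads GT at the 5′ end of the intron (the donor) and AG at its 3′ end (the acceptor). Both kinds of ends were searched here, GT-AG and the cleavage consensus of IRE1α, which is CNGCAG with the cut after the first G (N is any base).

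Of the 2091 Dtt regions of 10 bp and over, 4 carry CNGCAG at both ends on the strand of the gene, which is 0.191% (95% Wilson interval 0.0744 to 0.491). The regions are in *Xbp1* with 173 supporting reads, *Dlg5* with 3, and *Rai1* and *Wbp1* with 2 each. The 24 bases around each cut are shown on the strand of the gene because they set the *Xbp1* gap apart from the other 3. Capitals mark the motif, and the cut falls after the 12th base.
Xbp1 first cut: ctgctgagtCCGCAGcactcagac
Xbp1 second cut: tgtgcacctCTGCAGcaggtgcag
Dlg5 first cut: tcaggagtaCAGCAGgtacttcac
Dlg5 second cut: tgggcttctCCGCAGgggttgtcc
Rai1 first cut: aggaggagcCCGCAGgtattgttg
Rai1 second cut: ttttaatggCCGCAGcagttaggt
Wbp1 first cut: gcgccgcaaCAGCAGgtatcccag
Wbp1 second cut: ctttgcctcCTGCAGggttctggc
In mm9 the *Xbp1* gap cut in this way is chr11:5424282-5424307 on the plus strand, 26 bp inside a coding exon, and 7 placements of it give the same joined sequence, none of them with GT-AG ends. The *Dlg5* gap of 906 bp (chr14:24954899-24955804, minus strand), the *Rai1* gap of 281 bp (chr11:59953870-59954150, plus strand) and the *Wbp1* gap of 1158 bp (chr6:83070042-83071199, minus strand) slide over repeated bases, and another placement of each has GT-AG ends. In that placement the *Rai1* and *Wbp1* gaps are annotated introns, and the *Dlg5* gap joins an annotated acceptor to a donor 11 bp upstream of the annotated one. A read across any of these 3 junctions does not tell the placements apart. With 1 more base in the motif (CNGCAGC), the *Xbp1* region was the 1 left. CNGCAG stood at 1 end only in 67 regions (3.20%). Among the 241131 introns of 10 bp and over in the GENCODE vM1 annotation, 307 (0.127%) have the motif at both ends and 2.89% at 1 end. The motif count in the list thus lies near the level in ordinary introns, and in the 37 regions of 10 to 49 bp, where *Xbp1* lies, 1 has it at both ends.

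The 2533 regions fall in 1990 genes and rest on 6436 supporting reads. Support is thin, since 1935 regions (76.4%) have 2 reads, the fewest the list allows. The study proposes that regions with fewer than 5 reads are likely false positives, and most regions described here are of that kind. The minimum of 3 reads used below as an alternative lies under that limit. A single region was listed for 1624 genes, and 366 genes (18.4%, 95% Wilson interval 16.8 to 20.2) have 2 or more, of which 95 have at least 3 and 17 at least 5. Intervals here and below cover counting error only, since reads of 1 library without molecular identifiers are not independent molecules. Summed over their regions, 1247 genes have 2 reads, 47 have 10 or more and 11 have 20 or more. Those 11 genes hold 538 reads, 8.36% of the list.

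**Figure D1:**
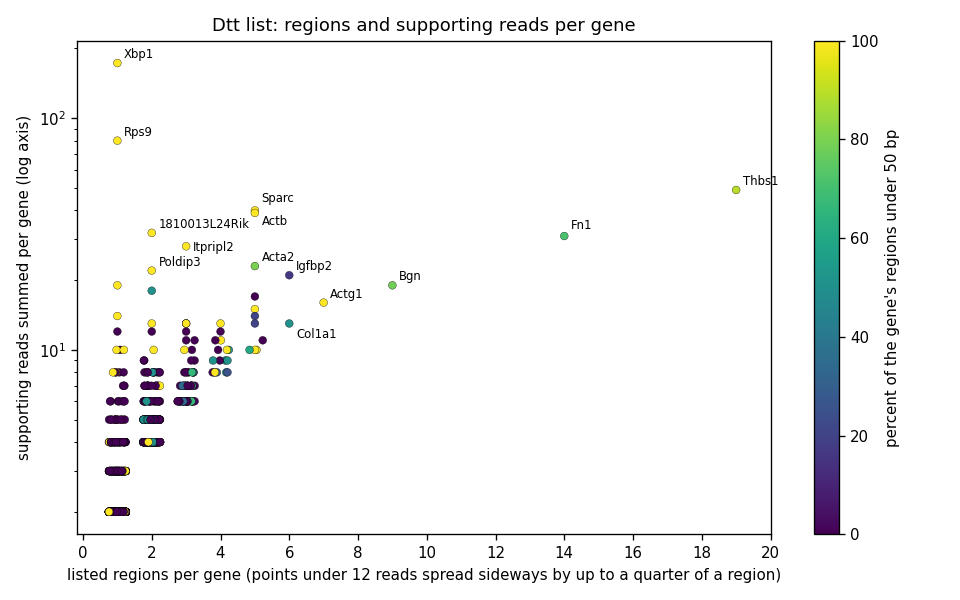
Each point is a gene of the Dtt list, with its number of listed regions on the x axis, its summed supporting reads on the y axis (log scale), and its share of regions under 50 bp as the colour. *Xbp1* and *Rps9* stand highest with 1 region each, at 173 and 80 reads, and *Thbs1* and *Fn1* lie farthest right with 19 and 14 regions.

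Most of the 6 genes with the highest numbers of regions code for extracellular matrix or cytoskeleton proteins. *Thbs1*, a secreted matrix glycoprotein, has 19 regions with 49 reads. *Fn1* (fibronectin) has 14 with 31 reads, *Bgn* (the proteoglycan biglycan) 9 with 19 reads, *Actg1* (cytoplasmic γ-actin) 7 with 16 reads, and *Igfbp2* (an IGF binding protein) and *Col1a1* (a chain of type I collagen) 6 each with 21 and 13 reads. Another 11 genes have 5 regions, among them *Sparc* with 40 reads, *Actb* with 39, *Acta2* with 23, *Vim*, the ER chaperone gene *Hspa5* and the disulfide isomerase gene *Pdia4* with 10 each. The share of regions under 50 bp rises with the number of regions in a gene. It is 15.2% in genes with 1 region (247 of 1624), 16.2% with 2, 25.9% with 3 or 4 and 68.1% with 5 or more (79 of 116, 59.2 to 75.9), and the median splice length goes from 1018.5 bp with 1 region to 2 bp with 5 or more. In *Thbs1*, 14 of 19 regions are 2 bp long, the shortest length the authors kept. The highest 2 of these hold 7 and 4 reads in the 3′ UTR. Of the 17 genes with 5 or more regions, 5 have mostly regions of 50 bp and over, which are *Cask* and *Qrich1* (5 of 5 each), *Igfbp2* (5 of 6), and *Aebp1* and *Eif4g1* (4 of 5 each).

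Ranked by reads, *Xbp1* (173) is followed by *Rps9*, a protein of the small ribosomal subunit, with 80 reads on 1 region of 4 bp in the 3′ UTR. Split reads alone do not tell a gap made in the mRNA from one already present in the genomic DNA of the cells, so the 80 reads do not show that the *Rps9* gap was spliced. PCR in the study placed this gap in the genomic DNA of the cells. Next come *Thbs1* with 49, *Sparc* with 40, *Actb* with 39, *1810013L24Rik* with 32, *Fn1* with 31, *Itpripl2* with 28, *Acta2* with 23 and *Poldip3* with 22. In *Sparc*, 23 and 10 reads sit on a pair of 2 bp regions that share their upper boundary in the 3′ UTR. In *Actb*, 19 and 14 reads sit on 2 bp regions of the 3′ UTR. In *1810013L24Rik*, 30 of the 32 reads are on a 3 bp region of the 3′ UTR. In each of these 10 genes, regions under 50 bp hold most of the reads.

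Ranked by their longest region, the genes are different ones. *Rsu1*, a Ras suppressor, has a region of 39231 bp, the non-coding gene *Pvt1* one of 38626 bp, the translation factor gene *Eif3h* one of 36868 bp, and *Sh3bp4*, *Senp6*, *Palm2*, *Timp2*, *Phactr4* and *Wls* have regions of 36295, 36121, 36118, 34755, 34506 and 33933 bp. The upper end is set by the largest distance the authors allowed between the parts of a read. The median gene has a longest region of 1193.5 bp, 195 genes have one over 10 kb, 280 have none of 50 bp or more, and 84 have regions on both sides of 50 bp.

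Most long regions have the ends that the spliceosome reads. Of the 2054 regions of 50 bp and over, 1871 (91.1%, 89.8 to 92.2) can be placed with GT-AG ends on the strand of the gene. Against the GENCODE vM1 annotation of mm9, 564 of these (30.1%, 28.1 to 32.3) join an annotated donor to a new acceptor, 532 (28.4%, 26.4 to 30.5) join a new donor to an annotated acceptor, 372 (19.9%, 18.1 to 21.8) join an annotated donor and acceptor that are not paired in the annotation, 359 (19.2%, 17.5 to 21.0) are annotated introns, and 44 (2.35%, 1.76 to 3.14) have no annotated end. At least 1 annotated end is thus present in 1827 (97.6%). The authors removed regions near junctions of the UCSC gene set, which is not the set used here, so the annotated introns are ones that GENCODE has and the removal step left in. Among regions with at least 3 reads the share of annotated introns is 27.6% (128 of 463) and that of new acceptors 25.1%.

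**Figure D2:**
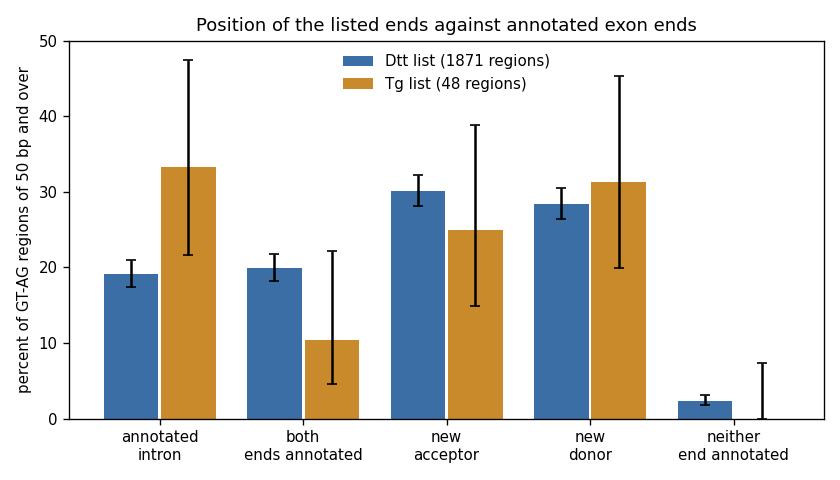
Bars give the percent of GT-AG regions of 50 bp and over in each class of ends, for the Dtt list (1871 regions) and the Tg list (48 regions), with 95% Wilson intervals as error bars. New acceptors (30.1%) and new donors (28.4%) are the tallest Dtt bars, and the Tg intervals are wide.

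The GT-AG regions with most reads come from genes of varied function. *Zfp498*, a zinc finger gene, leads with 12 reads on a gap of 2523 bp whose donor is 4 bp downstream of an annotated one. *Senp6* (a SUMO protease) and *Trp53* (the tumour suppressor p53) have 10 reads each, *Abi3bp* (a matrix protein) 9, and *Bub3* (a spindle checkpoint protein), *Mrpl28* (a mitochondrial ribosomal protein) and *Canx* (the ER lectin chaperone calnexin) 8 each. *Igfbp2*, *Cenph* (a kinetochore protein), *Dnttip1*, *Diexf*, *Arhgef25* and *Sf3a2* (a part of the U2 snRNP) have 7 each. Among the 44 regions with no annotated end, *Mmp2*, a matrix protease gene, has most reads, with 6 on a gap of 461 bp in its 3′ UTR. *Npat* and *Gpr124* have such gaps of 171 and 102 bp inside coding exons, with 4 reads each.

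Regions that join annotated ends in a new pairing mostly pass over 1 exon. Of the 372, 251 have 1 annotated exon inside, 60 have 2, 23 have 3, 20 have 4 to 8, and 18 have none. The *Trp53* gap of 398 bp, with 10 reads, leaves out an exon of 22 bp, chr11:69400759-69400780 on the plus strand. It is shown here with both ends of the gap because it has most reads among exons skipped singly. Capitals mark the exon in the first line, GT in the second and AG in the third.
Trp53 skipped exon: cagACTTCCTCCAGAAGATATCCTGgta
Trp53 donor: cttatggaaactGTgagtggatct
Trp53 acceptor: tcccatccacAGccatcacctcac
The printed windows are chr11:69400756-69400783, chr11:69400464-69400487 and chr11:69400862-69400885 in mm9. The other single exons with most reads are 164 bp in *Cenph* (7 reads), 93 bp in *Eya4* (6), 150 bp in *Eif3h*, 178 bp in *Hbegf*, 216 bp in *Klhdc8a* and 82 bp in *Rpl35* (5 each). Where 1 form of the exon is annotated (191 regions), the median exon is 118 bp and 13 exons are under 50 bp, such as 33 bp in *Dnm1l*, a dynamin-related GTPase of mitochondrial fission, with 4 reads. Of the 178 coding ones, 52 have a length divisible by 3 (29.2%, 23.0 to 36.3), against 41.0% of 165034 annotated internal coding exons. This comparison was chosen after the values were seen and is given as a description. Among wider skips, 10 reads cross 24694 bp and 2 exons in *Senp6*, 9 reads cross 28768 bp and 5 exons in *Abi3bp*, and 2 reads each cross 7 exons in *Chfr* and *Ccdc136* and 8 in *Napg*.

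New acceptors lie closer to annotated sites than new donors do. Measured to the nearest annotated acceptor of the gene, 190 of 564 new acceptors (33.7%, 29.9 to 37.7) lie within 20 bp, at a median distance of 51 bp over all. Measured to the nearest annotated donor, 100 of 532 new donors (18.8%, 15.7 to 22.3) do so, at a median of 268 bp. The near acceptors pile up just downstream, with 39 at 3 bp, 34 at 4 bp and 18 at 5 bp, while 14 lie 3 bp upstream. The near donors peak at 4 bp on either side, with 12 downstream and 11 upstream, and 0 lie 3 bp away. The authors' removal of regions near known junctions acts on this range of distances, and its part in these counts was not tested. Of the near acceptors 136 of 190 lie downstream of the annotated site, on its exon side, and 60 of the 100 near donors lie downstream, on the intron side. Over all distances, 292 new acceptors (51.8%, 47.7 to 55.9) and 167 new donors (31.4%, 27.6 to 35.5) fall inside an annotated exon.

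**Figure D3:**
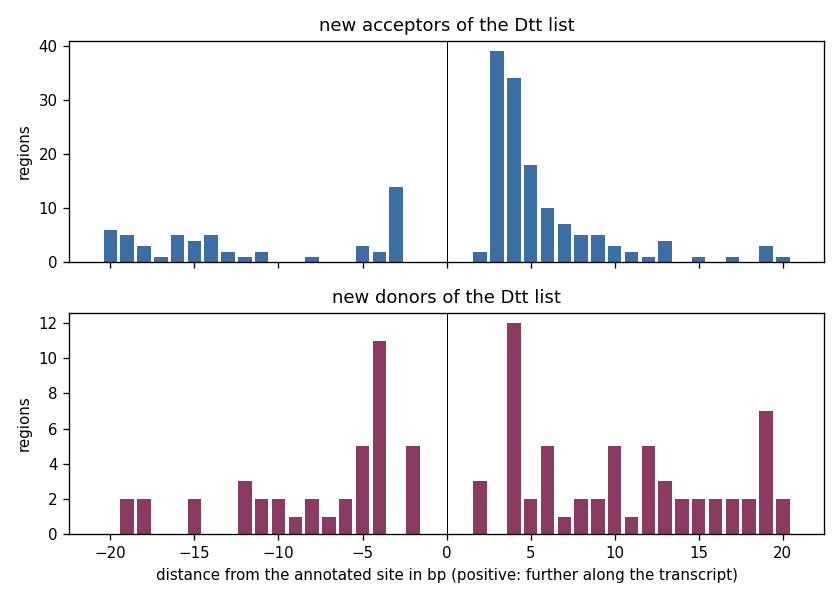
The number of Dtt regions is plotted against the distance in bp from the nearest annotated acceptor (upper panel) or donor (lower panel), positive values being further along the transcript. Acceptors peak at 3 and 4 bp downstream (39 and 34 regions) and donors at 4 bp on both sides (12 and 11 regions).

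The bases at the sites 3 or 4 bp away with most reads are printed because both the annotated and the listed site can be read in them. Capitals mark the 2 AG of an acceptor pair or the 2 GT of a donor pair, each line holds 24 bases on the strand of the gene, and the listed cut falls after the 12th base.
Canx acceptor: ctgtcttAGaAGagaaacagaaga
Chd3 acceptor: tgtttggcctAGcAGaagatgtaa
Sipa1l1 acceptor: cttccttcccAGcAGtaaggaccc
Fam113b acceptor: cttctgttctAGcAGttcccagac
Fbln2 acceptor: cctcacAGgaAGtgcgagcgcacc
Zfp498 donor: ccaaggcgGTggGTgagaagaggg
Usp19 donor: cagcgcagtgacGTggGTgagggc
Emd donor: catgggcctattGTggGTatgctg
Apoa1bp donor: ccccagagGTagGTgggttgatgc
Pabpc1 donor: ctgtctaaGTgaGTtctccctcgc
In mm9 the windows are chr11:50110625-50110648 for *Canx* and chr11:69162015-69162038 for *Chd3*, both on the minus strand, chr12:83550282-83550305 for *Sipa1l1*, chr15:97214444-97214467 for *Fam113b* and chr6:91221508-91221531 for *Fbln2*, all on the plus strand. The donor windows are chr5:146044642-146044665 for *Zfp498*, chr9:108402326-108402349 for *Usp19* and chrX:71500357-71500380 for *Emd* on the plus strand, and chr3:87861630-87861653 for *Apoa1bp* and chr15:36526302-36526325 for *Pabpc1* on the minus strand. *Canx* has 8 reads 3 bp downstream of the annotated acceptor, and *Fbln2*, a matrix fibulin, 4 reads at 4 bp downstream. *Chd3* (5 reads), *Sipa1l1* (4) and *Fam113b* (3) use the first AG of a pair whose other AG is annotated. At the donors, *Zfp498* (12 reads), *Apoa1bp* (3) and *Pabpc1* (3), which codes for a poly(A) binding protein, lie downstream of the annotated GT, and *Usp19* (6), a deubiquitinase, and *Emd* (4), the nuclear envelope protein emerin, lie upstream of it. At acceptors a distance of 3 bp keeps the reading frame of a coding exon, and at donors the peak of 4 bp does not. Of all near sites, 78 of 190 acceptors (41.1%) and 26 of 100 donors (26.0%) lie at a multiple of 3.

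In some genes several gaps share an end. Of the 236 genes with at least 2 long GT-AG regions, 47 have a pair that shares a donor or an acceptor, which is 28 pairs for each kind of end out of 345. *Abi3bp*, *Igfbp2*, *Tdp2* and *Tnk2* have 3 such pairs each. In *Abi3bp*, gaps of 28768, 29235 and 31404 bp with 9, 2 and 2 reads end at 1 acceptor. In *Igfbp2*, 1 acceptor is joined to the annotated donor over 23611 bp (7 reads), to a donor 12 bp downstream over 23599 bp (5 reads) and to one 7152 bp downstream over 16459 bp (2 reads). In *Tdp2*, a DNA repair phosphodiesterase gene, the annotated gap of 593 bp has 3 reads and gaps of 4759, 4086 and 4925 bp have 4, 3 and 2.

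The 183 long regions without GT-AG on the strand of the gene are of several kinds. GC-AG, a minor form of spliceosomal ends, was found in 39, of which 28 have a new donor, and AT-AC in 0. GT-AG on the opposite strand was found in 52, among them 4 of the 5 regions of *Cask*, with gaps of 1272 to 10355 bp and 2 reads each. In the remaining 92 none of these was found, such as gaps of 978 bp (3 reads) and 338 bp (2 reads) in *Col1a1*. For 4 of the 92 no gene was found, so they had no gene strand and their ends were not searched.

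The 479 regions under 50 bp (18.9%) are mostly 2 bp long. That is the shortest length the list can hold, since the authors removed gaps below 2 bp as likely false positives. There are 363 regions of 2 bp, with 945 reads in all, and for 176 of them the listed boundaries lie farther apart than a single gap allows. By position, 264 of the 479 (55.1%) lie in a 3′ UTR, 156 (32.6%) in a coding exon and 11 in a 5′ UTR. Lengths of 3 bp and over split differently by position. In coding exons 30 of 34 (88.2%, 73.4 to 95.3) are divisible by 3, with 19 of 3 bp and 0 of 4 bp. In 3′ UTRs 31 of 57 (54.4%, 41.6 to 66.6) are, with 20 of 3 bp and 14 of 4 bp. The limit of 3 bp was chosen after the values were seen. With the 2 bp regions included, the share in coding exons is 30 of 156 (19.2%). The coding regions that break the rule of 3 are the 26 bp of *Xbp1* and gaps of 16 bp in *Slco3a1*, 28 bp in *Ube2s* and 35 bp in *Camsap1*, the last 3 with 2 reads each.

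**Figure D4:**
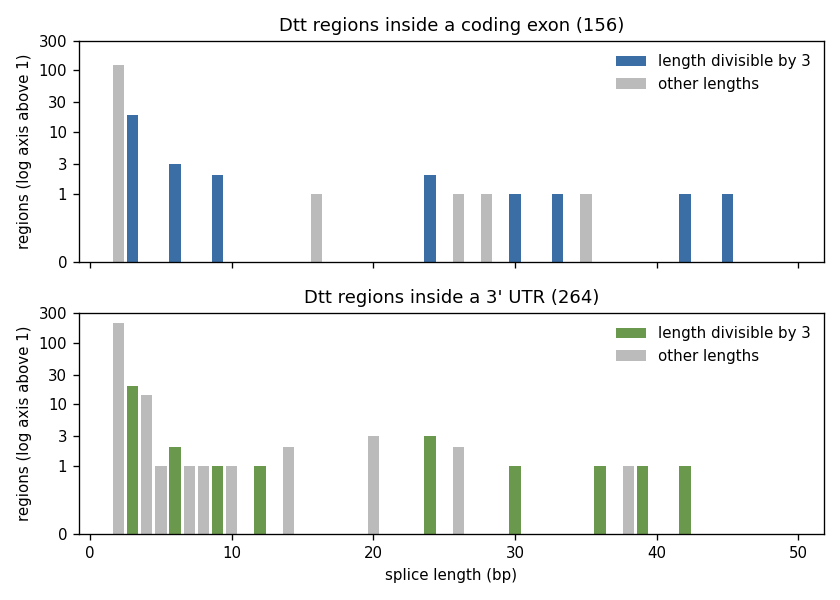
The number of Dtt regions inside coding exons (156, upper panel) and 3′ UTRs (264, lower panel) is plotted against splice length in bp, on an axis that is logarithmic above 1 region. Lengths divisible by 3 are coloured, and the grey bar at 2 bp is the tallest in both panels, at 122 and 207 regions.

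Repeated bases stand next to the gap in the 3 coding regions of 3 to 10 bp with most reads among those no wider than 1 junction allows, a limit that leaves out a wider 3 bp region of *Jun* with 4 reads. Capitals mark the bases left out, on the strand of the gene.
Rplp2-ps1: cccgctgcagCAGaggagaagaa
Boc: cccaacgtcgTCGgtacagccta
Idh2: ctggccctggCCCTGGgaccatggca
The first, with 19 reads at chr12:76732022-76732044, is listed under *Wdr89* but lies in an exon annotated as *Rplp2-ps1*, a copy of a ribosomal protein gene, so its source is uncertain. *Boc*, a cell surface receptor of the immunoglobulin superfamily, has 10 reads at chr16:44496532-44496554, and *Idh2*, the mitochondrial isocitrate dehydrogenase, has 3 at chr7:87243209-87243234. All 3 windows are on the minus strand of mm9. Longer in-frame gaps are 33 bp in *Myh9* (5 reads), which codes for a non-muscle myosin heavy chain, 45 bp in *Clta* (3 reads), a clathrin light chain, and 24 bp in *Aebp1* (3 reads). In 15 genes, 27 pairs of short regions overlap, 23 of them with unequal lengths. Examples are 4 bp with 11 reads and 3 bp with 2 reads in the 3′ UTR of *Maff*, and 39 bp with 17 reads and 3 bp with 5 reads in that of *Poldip3*.

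The genes of the list were then grouped by function, in 30 lists matched to protein-coding symbols. Of 22238 protein-coding genes 1965 have a Dtt region, which is 8.84%, and 518 of them are in at least 1 list. All lists but solute carriers (29 of 353, 8.22%) lie above 8.84%, which includes lists with no tie to the ER. No expression level is at hand in the list, so these shares could not be read against expression, and nothing is drawn from the order of the lists.

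**Figure D5:**
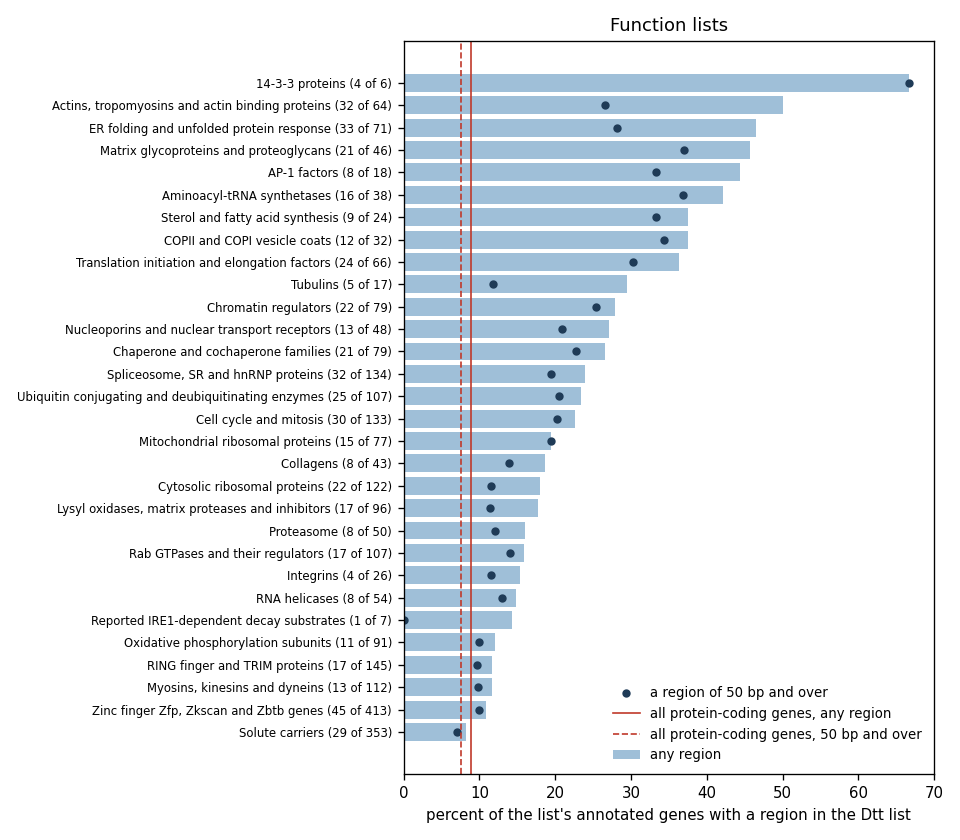
Bars give the percent of the annotated genes of each function list that have a Dtt region, dots the percent with a region of 50 bp and over, and the vertical lines the same for all protein-coding genes (8.84% and 7.61%). Below the 6 genes of the 14-3-3 list, the actin, ER and matrix lists stand highest at 50%, 46.5% and 45.7%, and the dots of the actin and ER lists lie well to the left of their bars.

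ER folding and unfolded protein response genes have a region in 33 of 71 cases (46.5%), with 47 regions and 283 reads, of which *Xbp1* holds 173. With regions of 50 bp and over alone the count is 20 (28.2%, against 7.61% of all protein-coding genes). *Hspa5*, the ER Hsp70 chaperone BiP, has 5 regions of 2 bp with 2 reads each, 4 in coding exons and 1 in the 3′ UTR. *Herpud1*, a stress-induced component of ER-associated degradation, has 4 regions with 2 reads each, of which the 1775 bp gap is an annotated intron, 68 and 406 bp end at new acceptors, and 42 bp lies inside a coding exon. *Pdia4* has new acceptors after gaps of 2347 and 4882 bp, coding gaps of 3 and 9 bp and a 2 bp region in the 3′ UTR, with 2 reads each. Coding gaps of 30 bp in *Ppp1r15a*, the stress-induced regulator of eIF2α dephosphorylation, and of 3 bp in *Creld2*, an ER protein, also have 2 reads. Apart from *Xbp1*, *Canx* is the gene of this group with the best supported single region (8 reads). A short list of 7 genes was taken for reported substrates of IRE1-dependent mRNA decay, a cleavage without ligation. Of these, 1 (14.3%, against 8.84% of all protein-coding genes) has a region, which is *Sparc* with its 2 bp gaps. With regions of 50 bp and over alone the count is 0.

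Of the vesicle coat genes of the ER and Golgi 12 of 32 (37.5%) have a region, led by *Sec31a* with 6 reads on a gap of 7800 bp that starts at a donor 189 bp downstream of an annotated one. Sterol and fatty acid synthesis genes also reach 37.5% (9 of 24). The AP-1 list was matched by symbol and takes in *Atf1*, which is not a Jun or Fos gene. Of its genes 8 of 18 (44.4%) have a region. Among them are *Jun* with 4 reads on 3 bp in its coding exon and *Atf1* with 3 reads on a 17162 bp gap over 3 exons.

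Matrix glycoproteins have a region in 21 of 46 genes (45.7%) with 73 regions and 207 reads, and actins and actin binding proteins in 32 of 64 (50%) with 63 regions and 202 reads. Both groups have a median length of 2 bp, with 64.4% and 65.1% of their regions under 50 bp. Collagens reach 8 of 43 genes, led by *Col8a1* with 15 reads on 2 bp in the 3′ UTR. Short regions are 47 of the 73 matrix and 41 of the 63 actin regions, while 17 genes of each group keep a region when those of 50 bp and over are counted alone, which is 37.0% and 26.6% of the annotated genes.

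For the genes of protein synthesis and RNA processing, lengths are read against the whole list, where the median is 902 bp and 18.9% of regions are under 50 bp. Translation factors have a region in 24 of 66 genes (36.4%), with a median length of 300.5 bp and 30% under 50 bp, and aminoacyl-tRNA synthetases in 16 of 38 (42.1%), with 964 bp and 26.1%. In *Eif4g1*, a scaffold of cap-dependent initiation, an annotated intron of 247 bp and a gap of 220 bp with a donor 6 bp downstream have 4 reads each. Spliceosome, SR and hnRNP genes have a region in 32 of 134 (23.9%), with a median of 881 bp and 17.1% under 50 bp. Among them *Sf3a2* has 7 reads on an annotated intron of 77 bp, and *Srsf11*, an SR protein, has 4 reads on an annotated intron of 763 bp and 3 on a new donor gap of 1195 bp. Cytosolic ribosomal protein genes, many of which have near-identical copies, reach 22 of 122 (18.0%) with a median of 153 bp and 42.3% under 50 bp, and mitochondrial ones 15 of 77 (19.5%), none of whose 16 regions is under 50 bp. The 14-3-3 proteins have 4 of 6 genes listed, where *Ywhab* has 4 reads on an annotated intron of 15730 bp.

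At the low end, near 8.84%, are zinc finger genes of the Zfp, *Zkscan* and Zbtb families (45 of 413, 10.9%), oxidative phosphorylation subunits (11 of 91, 12.1%), RING finger and TRIM proteins (17 of 145, 11.7%) and motor proteins (13 of 112, 11.6%). Between these lie cell cycle genes with 30 of 133 (22.6%), led by *Cenph* with 11 reads on 3 regions, chromatin regulators with 22 of 79 (27.8%), ubiquitin enzymes with 25 of 107 (23.4%), chaperone and cochaperone families with 21 of 79 (26.6%), which include ER and mitochondrial members and share 3 genes (*Dnajb9*, *Dnajb12* and *Dnajc1*) with the ER list, nucleoporins with 13 of 48 (27.1%), Rab GTPases and their regulators with 17 of 107 (15.9%), the proteasome with 8 of 50 (16.0%), matrix proteases and lysyl oxidases with 17 of 96 (17.7%), RNA helicases with 8 of 54 (14.8%), tubulins with 5 of 17 (29.4%) and integrins with 4 of 26 (15.4%). With regions of 50 bp and over alone, against 7.61% of all protein-coding genes, tubulins fall to 11.8%, matrix proteases and lysyl oxidases to 11.5% and cytosolic ribosomal proteins to 11.5%.

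The classes of the Dtt list were set beside those of the Tg list, which has 48 GT-AG regions of 50 bp and over. Annotated introns are 19.2% of the Dtt and 33.3% of the Tg regions (16 of 48, 21.7 to 47.5; two-sided Fisher's exact test, p = 0.0248, Benjamini-Hochberg adjusted over 5 classes 0.124). Regions with both ends annotated are 19.9% against 10.4% (adjusted p = 0.347 in the same exact test). New acceptors, new donors and regions with neither end annotated are 30.1% against 25.0%, 28.4% against 31.2% and 2.35% against 0%, with an adjusted p of 0.631 for each by the same exact test. None of the 5 differences passed the threshold of 0.05. The units of this test are regions and each list is 1 library, so it compares these 2 lists and says nothing about a difference between the treatments. Agent, read length, number of reads, KO allele, date of the experiment and the authors' merging distance differ between the lists at once and cannot be told apart.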

How the data were processed

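The series has a Het and a KO library in each of its experiments, and libraries were grouped by the genotype and agent in their labels. Per the study's methods, the authors aligned reads with Bowtie to mm9 plus junctions of UCSC genes, cut each unmapped read into pairs of pieces, aligned the pieces again and merged pairs of equal splice length into regions. They dropped gaps under 2 bp, regions close to a UCSC junction, regions below 2 reads and regions also found in the KO library. The deposited values used here are counts, namely unnormalized numbers of Het reads behind each region, with the authors' splice lengths and boundaries in bp. Library totals were not used. The KO fields are blank, and no column of another sample was present.

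Each Dtt region was assigned to a GENCODE vM1 gene by symbol (2482 regions), synonym (24) or position (19), and 8 had none. For 3 regions the listed name had turned into a date, and position gave the gene. All gap placements that leave the joined mm9 sequence the same, and those the boundaries allow, were searched for the ends named in the report on the gene strand. Where several placements had GT-AG ends, the one with more annotated ends was kept. New sites were measured to the nearest annotated site of the same kind in the gene. On simulated data, 200 of 200 annotated introns and 200 of 200 new pairings of annotated ends were recovered, and 2 of 200 random gaps were called GT-AG. The introns and pairings came from the same annotation, with GT-AG ends and exact boundaries. Their recovery thus checks the code and does not measure how accurate the classes are. New acceptors, new donors and regions with no annotated end were not simulated.

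Shares have 95% Wilson intervals. The classes of the Dtt and Tg lists were compared by Fisher's exact test (two-sided, threshold 0.05, adjusted over 5 classes). No test compares genotypes, since each has 1 library and the list was filtered on their difference. Genes named are *Xbp1*, the top genes by regions, reads and longest region, the regions with most reads in each class, function list and kind of near site, those with the motif at both ends, and genes that share ends. Some genes that this rule takes are not reported here. Regions named for short coding lengths, small exons or overlaps were chosen after their values were seen. The members, gene lists and rules were chosen with earlier results of these data known. The alternatives were a minimum of 3 reads, other limits on length or distance, 1 region per gene and other motif settings. The software was Python (3.11.15) with numpy (2.4.6), scipy (1.17.1), matplotlib (3.10.9) and pysam (0.24.0).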

Additional observations from a re-analysis of the deposited data

How the results depend on the processing

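No paired analysis was possible because the KO library of each experiment has no values in the list to set beside its Het partner. With at least 3 reads, the share of genes with 2 or more regions was 7.88% in place of 18.4%. Annotated introns then made up 27.6% and new acceptors 25.1% of long GT-AG regions. Lengths divisible by 3 made up 32.0% of short coding regions (8 of 25). In the function lists, 156 in place of 518 genes had a region. Over all protein-coding genes the same setting left 534 in place of 1965, which is 2.40% in place of 8.84%. With regions of 50 bp and over alone, the share of genes with 2 or more was 16.1%. At 200 bp and over, regions with both ends annotated made up 22.1% and those with neither 1.62%. With CNGCAGC in place of CNGCAG, the motif count was 1 in place of 4, while the count stayed at 4 on either strand or within the listed boundaries. Leaving out regions wider than 1 junction allows, 32.2% of short coding lengths were divisible by 3. Limits of 10 and 50 bp put 18.6% and 38.8% of new sites near an annotated one, in place of 26.5% at 20 bp. Taking 1 region per gene kept all 5 class shares inside their main intervals. None of the 5 class differences from the Tg list changed sign or passed the threshold with at least 3 reads, where the Tg list keeps 4 regions and the test has little reach. With 3 or more reads 28 of 30 function lists, and with 50 bp and over 28 of 30, lay above the share of all protein-coding genes, against 29 as listed.

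Most regions rest on 2 reads, each list is 1 library, and the list holds no KO count. The study prints library totals for its Het libraries only, and these were not used here. The absence of a region from the KO library was thus not weighed against depth.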
